A study of Mus musculus with 20 samples.

Results

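Of the 16014 named genes in the deposited table, 10 were followed in mouse blastocysts: Serpinh1, P4ha1, P4ha2, Plod1, Plod2, Plod3, Rcn1, Rcn2, Ckap4 and Golm2. They encode proteins of the endoplasmic reticulum and Golgi that fold, modify or accompany secreted proteins, collagen above all. They were taken by gene name. Rcn1, Ckap4 and Golm2 were selected on their measured fall after injection of a let-7f-5p mimic, so their differences between groups are given as a description with no test. The other 7 were taken for their function, with earlier results of these data known. All 10 passed the filter on low values, which kept 15068 genes.

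The study injected wild-type zygotes of the strain labelled F1 C57BL/6Jx129S1/SvlmJ and grew them in KSOM medium to the blastocyst, the stage just before implantation. Vehicle zygotes (7 pools) received nuclease-free water. Str - let7f zygotes (8 pools) received the mimic at a concentration matched to the rise of this miRNA in sperm after stress, and 2x Str - let7f zygotes (5 pools) received double that concentration. Each library came from a pool of 10 embryos, and no group received an unrelated mimic. Whether the pools of a group had different mothers or injection dates is not in the labels, so the p-values speak of the variation among these pools, which may be partly technical. Libraries held 1.54 M to 58.8 M reads, with medians of 10.5 M in Vehicle, 12.4 M in Str - let7f and 5.04 M in 2x Str - let7f.

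Newly made collagen chains enter the lumen of the endoplasmic reticulum, where prolyl 4-hydroxylases and lysyl hydroxylases modify them before the triple helix closes. The chaperone HSP47, the product of Serpinh1, then binds the helix and escorts it towards the Golgi. In the blastocyst the main collagen is type IV, which the primitive endoderm and trophectoderm lay down with laminin, nidogen and perlecan as basement membrane. Rcn1 and Rcn2 encode reticulocalbins, calcium-binding EF-hand proteins of the secretory pathway. Ckap4 and Golm2 encode membrane proteins, of endoplasmic reticulum sheets and of the Golgi respectively, so neither is a soluble lumen protein.

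The mimic sequence is shown because its seed, bases 2 to 8 in capitals, sets which sites a let-7 miRNA can pair with. It had the same 22 bases as the mouse mature miRNA let-7f-5p in RefSeq, made from Mirlet7f-1 (chr13:48537889-48537910, minus strand) and Mirlet7f-2 (chrX:151912353-151912374, plus strand) in GRCm38.p6.
let-7f-5p mimic: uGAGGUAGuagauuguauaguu

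The 3′ untranslated regions of the members were searched on the transcript strand for CTACCTCA (8 bases), CTACCTC (7 bases, written m8) and TACCTCA (7 bases, written A1). The 7-base forms were counted only outside an 8-base match. The search used the longest such region per gene in GENCODE M21 on GRCm38, where Golm2 has the name Casc4. Rcn1 held 2 matches, P4ha2 held 1, and the other 8 members held none of these letters. No member held the 8-base form, which 504 of 13470 genes with such a region (3.74%) held, while 17.6% held any of the 3 forms. The matches are shown because they are the only seed pairings found in the set, with the matched bases in capitals.
Rcn1, A1 match at base 110 of 1628 after the stop codon, chr2:105387797-105387819, minus strand: agtgggattaTACCTCAgattgg
Rcn1, m8 match at base 1290 of 1628, chr2:105386617-105386639, minus strand: tgagaactgcCTACCTCtttact
P4ha2, A1 match at base 265 of 402, chr11:54131515-54131537, plus strand: ggtgcctttgTACCTCAgatatt
A match is a stretch of letters, and no binding was measured. The member with the lowest value relative to Vehicle, Rcn1, held 2 matches, while Ckap4, Golm2 and Serpinh1 held none. Of these, Rcn1, Ckap4 and Golm2 were selected on their fall, and any bearing of the matches on the levels was not tested.

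Serpinh1 had the highest mean level of the set in every group, but in 2x Str - let7f the median of Golm2 was higher. In normalized counts, reads divided by 1 size factor per library, Serpinh1 ran from 1547 through a median of 2367 to 2645 in the Vehicle pools. The Str - let7f pools ran from 669 through a median of 1262 to 2173. The 2x Str - let7f pools stood at 2524, 1163, 964, 687 and 808 in replicates 1 to 5. Below the lowest Vehicle pool lay 6 of 8 pools of Str - let7f and 4 of 5 of 2x Str - let7f, while 2x Str - let7f replicate 1 lay above the Vehicle median. On the log2(normalized count + 1) scale, Serpinh1 differed from Vehicle by -0.90 ± 0.25 (SE) in Str - let7f and by -1.03 ± 0.29 in 2x Str - let7f. Neither difference passed the threshold of 0.05 over all genes tested (limma adjusted p = 0.0582 and 0.0651). Single pools decided the call. Without 2x Str - let7f replicate 1 the difference of that group was -1.33 (limma adjusted p = 0.00657). The Str - let7f difference passed without Str - let7f replicate 1 (-0.98, limma adjusted p = 0.0390), without Str - let7f replicate 2 (-1.02, limma adjusted p = 0.0213) or without Vehicle replicate 8 (-0.99, limma adjusted p = 0.0475).

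**Figure D1:**
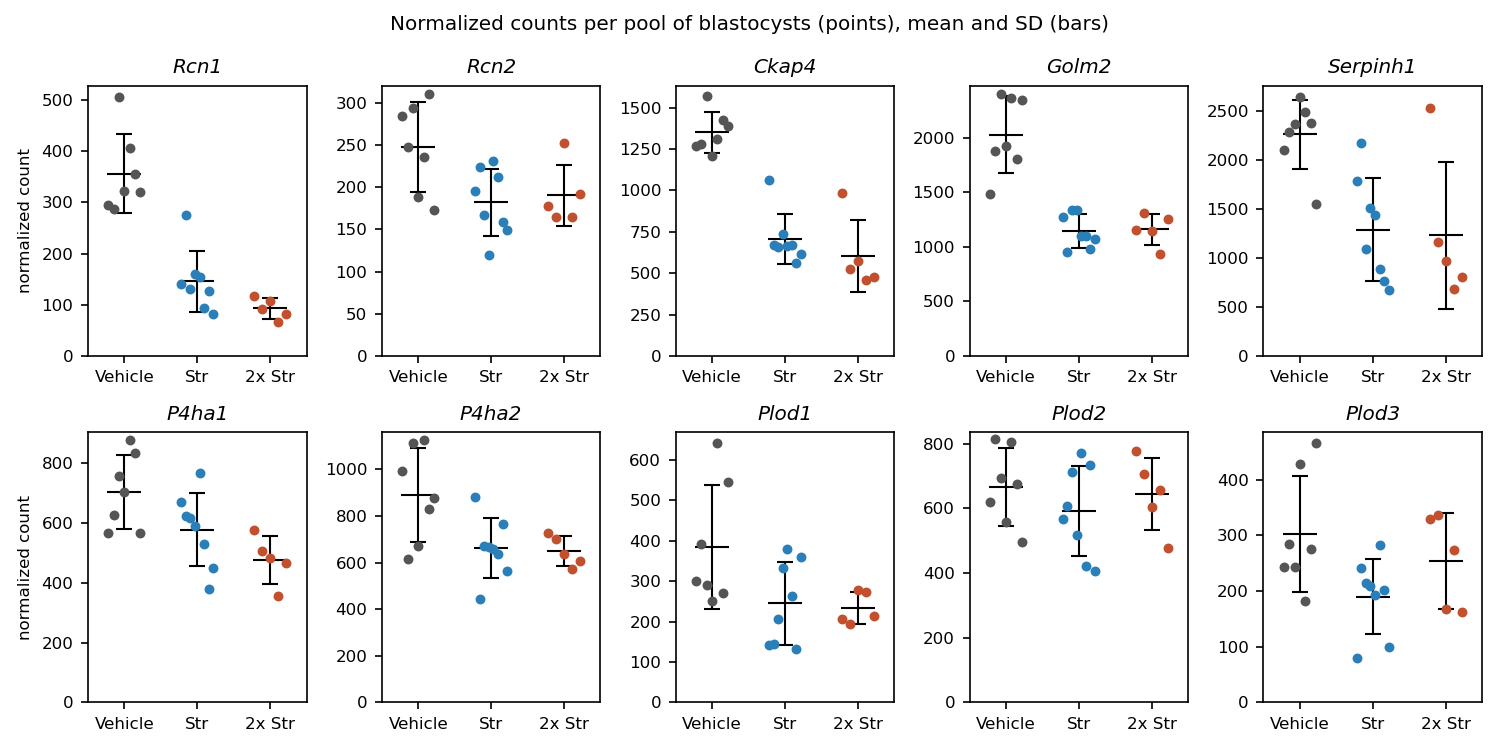
Normalized count (vertical axis, from 0) of each gene in every pool (points), with the mean and SD of each group (bars); Str and 2x Str stand for Str - let7f and 2x Str - let7f. Rcn1, Ckap4 and Golm2 show no overlap between Vehicle and the mimic groups, and Serpinh1 shows 1 pool of 2x Str - let7f at 2524 with the other 4 at 687 to 1163.

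P4ha1 and P4ha2 encode the catalytic alpha subunits of prolyl 4-hydroxylase, which makes the 4-hydroxyproline that holds the collagen helix stable. P4ha1 ran from 567 through a median of 703 to 877 normalized counts in Vehicle and from 380 through 603 to 768 in Str - let7f. The 2x Str - let7f pools, replicates 1 to 5, stood at 578, 507, 483, 356 and 467. Of these, 4 of 5 lay below the lowest Vehicle pool, as did 3 of 8 in Str - let7f. The P4ha1 differences from Vehicle were -0.30 ± 0.15 (SE) in Str - let7f and -0.56 ± 0.17 in 2x Str - let7f, and neither passed (limma adjusted p = 0.380 and 0.115). P4ha2, the member with 1 seed match, ran from 615 through 878 to 1124 in Vehicle, from 445 through 664 to 881 in Str - let7f and from 573 to 728 in 2x Str - let7f. All 3 groups overlapped in P4ha2, and its differences of -0.42 ± 0.15 and -0.43 ± 0.17 did not pass (limma adjusted p = 0.163 and 0.267).

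Plod1, Plod2 and Plod3 encode the lysyl hydroxylases, whose products carry collagen crosslinks and, through Plod3 in addition, sugar chains. The groups overlapped in all 3 genes. Plod1 ran from 251 through a median of 301 to 642 normalized counts in Vehicle, from 133 through 235 to 379 in Str - let7f and from 193 to 278 in 2x Str - let7f. Its differences from Vehicle were -0.68 ± 0.26 (SE) and -0.65 ± 0.29 (limma adjusted p = 0.199 and 0.347). Plod3 ran from 182 through 275 to 465 in Vehicle, from 80 through 206 to 282 in Str - let7f and from 162 to 337 in 2x Str - let7f. It differed by -0.71 ± 0.27 and -0.26 ± 0.31 (limma adjusted p = 0.205 and 0.815). Plod2, the telopeptide lysyl hydroxylase, lay nearest to Vehicle of the 10 genes. It averaged 666 ± 119 (SD, n = 7) in Vehicle, 592 ± 139 (n = 8) in Str - let7f and 644 ± 113 (n = 5) in 2x Str - let7f. Its difference from Vehicle was -0.19 ± 0.16 in Str - let7f (95% interval -0.52 to 0.15) and -0.05 ± 0.18 in 2x Str - let7f (-0.42 to 0.33), and both intervals included 0.

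Rcn1, one of the genes picked for its lower values, had the lowest log2 differences from Vehicle of the 10 genes. Its Vehicle pools ran from 286 through a median of 322 to 506 normalized counts, and its Str - let7f pools from 83 through 136 to 276. The 2x Str - let7f pools, replicates 1 to 5, stood at 118, 92.7, 108, 67.1 and 81.1. No mimic pool reached the lowest Vehicle pool, and Str - let7f replicate 2, at 276, came nearest to it. The log2 difference from Vehicle was -1.35 ± 0.23 (SE) in Str - let7f and -1.92 ± 0.26 in 2x Str - let7f, or 39.4% and 26.4% of the Vehicle level. Rcn2, the related reticulocalbin that was not picked, ran from 173 through 247 to 311 in Vehicle, from 120 through 181 to 232 in Str - let7f and from 165 to 252 in 2x Str - let7f. Its groups overlapped, and its differences of -0.44 ± 0.19 and -0.37 ± 0.21 did not pass (limma adjusted p = 0.257 and 0.508).

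Ckap4 encodes CLIMP-63, a spacer and microtubule anchor of endoplasmic reticulum sheets. It ran from 1205 through a median of 1308 to 1571 normalized counts in Vehicle and from 564 through 667 to 1061 in Str - let7f. Its 2x Str - let7f pools, replicates 1 to 5, stood at 984, 528, 572, 460 and 476. The groups did not overlap with Vehicle, and 1 pool of each mimic group, replicate 1 in both, lay well above the others of its group. The Ckap4 differences from Vehicle were -0.95 ± 0.15 (SE) and -1.22 ± 0.17, or 51.6% and 43.1% of the Vehicle level.

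Golm2 encodes a single-pass membrane protein of the Golgi. It ran from 1480 through a median of 1925 to 2399 normalized counts in Vehicle and from 952 through 1100 to 1333 in Str - let7f. Its 2x Str - let7f pools, replicates 1 to 5, stood at 1154, 1313, 1143, 930 and 1253. All 13 mimic pools lay between 930 and 1333, below every Vehicle pool. The Golm2 differences were -0.82 ± 0.12 (SE) and -0.80 ± 0.13, or 56.7% and 57.5% of the Vehicle level.

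**Figure D2:**
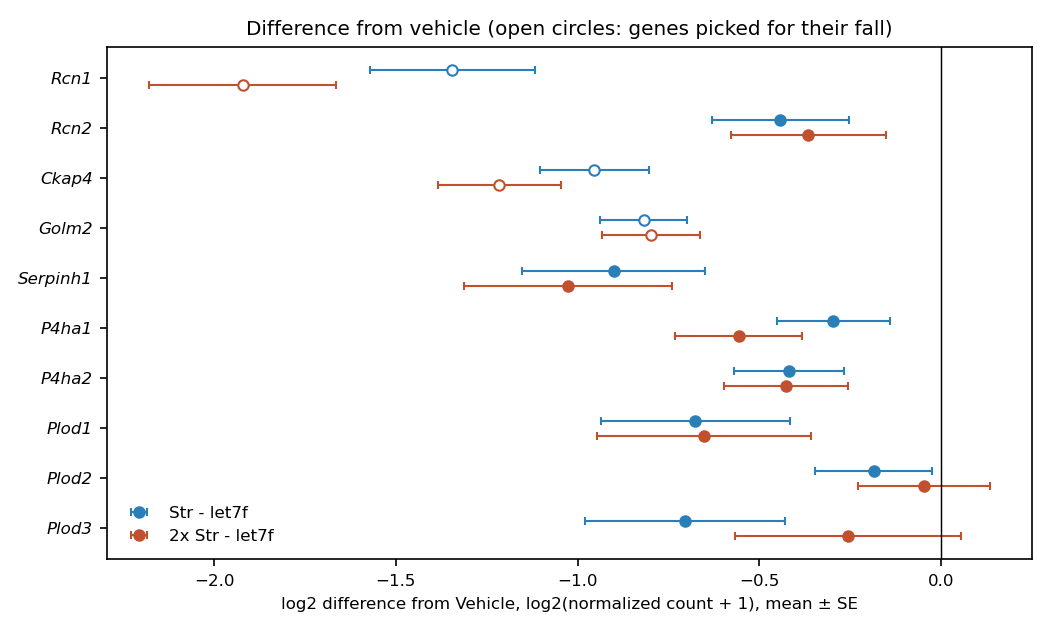
Difference from Vehicle on the log2(normalized count + 1) scale for each gene (mean ± SE from the fit over all genes), in Str - let7f and 2x Str - let7f; open circles mark the genes picked for their lower values. All points lie below 0, from -0.05 for Plod2 in 2x Str - let7f to -1.92 for Rcn1 in 2x Str - let7f.

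Among the 7 genes that were not picked, 0 passed the test in Str - let7f against Vehicle, where 2.63% of all genes tested passed (0.796% in the lower direction). Likewise 0 of 7 passed in 2x Str - let7f against Vehicle, where 1.89% of all genes passed (0.664% lower). With limma at an unadjusted p under 0.05, 5 of the 7 were lower in Str - let7f and 4 of the 7 in 2x Str - let7f, against 6.78% and 5.81% of all genes lower at that level. With edgeR on the recovered reads 0 of 7 passed in either comparison. With DESeq2 1 passed in each, Serpinh1 in Str - let7f (adjusted p = 0.0457) and P4ha1 in 2x Str - let7f (adjusted p = 0.0348). The median log2 difference of the 7 was -0.44 in Str - let7f and -0.43 in 2x Str - let7f, against -0.02 and -0.01 over all genes tested. All 10 differences were below 0 in both comparisons, as were 51.8% and 50.7% of all genes. Both comparisons used the same Vehicle pools, so they are not independent of each other. For the picked genes this direction was fixed by the choice.

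Every mimic pool below every Vehicle pool was seen for the 3 picked genes in both comparisons and for 0 of the other 7. Among all genes tested this held for 0.232% in Str - let7f and 0.889% in 2x Str - let7f. The 3 picked genes were chosen on their lower values, so only the 0 of 7 can be set beside these shares.

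Between the mimic groups, 5 of the 10 differences were below 0, as were 49.6% of all genes. None of the 7 genes that were not picked passed in 2x Str - let7f against Str - let7f (limma adjusted p = 0.9997 for each), and 0% of all genes passed in this comparison. With limma 0 of the 7 had an unadjusted p under 0.05, against 4.04% of all genes, and neither edgeR nor DESeq2 called any of them. Every 2x Str - let7f pool lay below every Str - let7f pool for 0 of the 10 and for 0.0265% of all genes. Differences of the 7 ran from -0.26 ± 0.17 (SE) for P4ha1, with a 95% interval of -0.61 to 0.09, to 0.45 ± 0.30 for Plod3, with an interval of -0.18 to 1.07. Rcn1 had the lowest value, at -0.58 ± 0.25, with 2 of 5 pools of 2x Str - let7f below all 8 of Str - let7f. Ckap4 stood at -0.26 ± 0.17 and Golm2 at 0.02 ± 0.13.

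**Figure D3:**
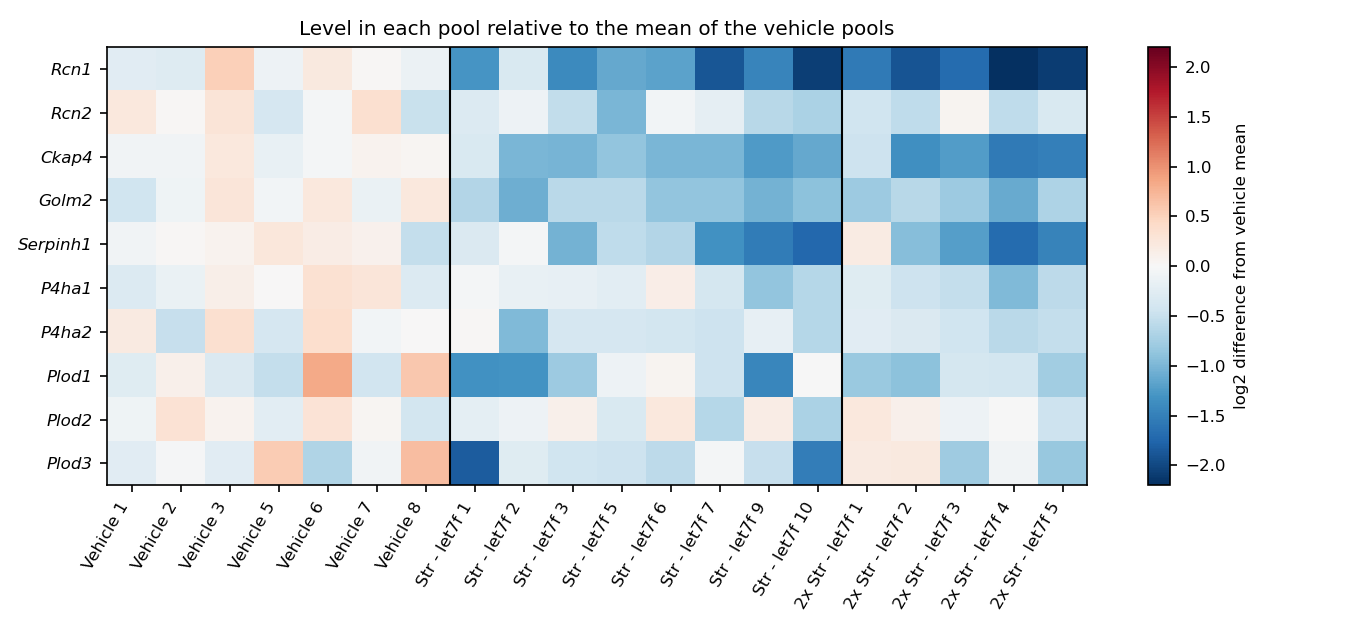
Level of each gene (rows) in each pool (columns) as the log2 difference from the mean of the Vehicle pools (color scale, blue lower, red higher); vertical lines separate the groups. Rcn1, Ckap4 and Golm2 are blue across the mimic pools, and 2x Str - let7f replicate 1 is pale in most other rows.

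The 13 mimic pools differed in how many of the 10 genes lay below the lowest Vehicle pool. Str - let7f replicate 10 and 2x Str - let7f replicate 5 had 9 of 10 below it, while Str - let7f replicate 6 and 2x Str - let7f replicate 1 had 4 of 10. In every mimic pool these counts include Rcn1, Ckap4 and Golm2, which were picked for their fall. Beside them, Str - let7f replicate 6 had only Serpinh1 below it and 2x Str - let7f replicate 1 only Plod1. The share of all genes below the lowest Vehicle pool was not computed for single pools. Within 2x Str - let7f, replicate 1 held the highest value for 6 of the 10 genes (Rcn1, Ckap4, Serpinh1, P4ha1, P4ha2 and Plod2). Replicate 4 held the lowest for 6 (Rcn1, Ckap4, Golm2, Serpinh1, P4ha1 and P4ha2). Replicate 4, with 1.94 M reads, was the shallowest library of its group, and replicate 1 had 5.04 M.

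The spread between pools also differed between the genes. For Serpinh1 the SD of the log2 values was 0.25 in Vehicle, 0.61 in Str - let7f and 0.73 in 2x Str - let7f. The median SD of the 9098 genes with a mean of at least 100 was 0.35, 0.39 and 0.35 in these groups. Golm2 showed no such widening, with SDs of 0.26, 0.19 and 0.19. Ckap4 had the narrowest Vehicle spread of the set at 0.13, and 0.27 and 0.45 in the mimic groups. No test of these spreads was made.

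Per kilobase of the longest coding transcript, which allows levels of different genes to be set side by side, Serpinh1 stood highest in Vehicle at 993 ± 156 normalized counts per kilobase (SD, n = 7). Golm2 followed at 481 ± 82.9, Ckap4 at 437 ± 39.6 and P4ha2 at 399 ± 89.8. These 3 were within their spread of one another. Plod2 (182 ± 32.5), P4ha1 (174 ± 30.8), Rcn1 (131 ± 28.4), Rcn2 (122 ± 26.1), Plod1 (119 ± 47.0) and Plod3 (92.4 ± 31.7) formed a lower tier, and neighbors in this order overlapped. In Str - let7f and 2x Str - let7f Serpinh1 was still first, at 567 ± 232 (n = 8) and 541 ± 328 (n = 5). Rcn1 went from the seventh place to the last, at 53.6 ± 21.8 and 34.3 ± 7.49, and P4ha2 stood second in both, at 297 ± 57.8 and 291 ± 28.8. The transcript lengths come from GENCODE M21 and need not be the isoforms in use.

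Likeness was measured for Rcn1, Ckap4, Golm2 and Serpinh1 as the root mean square difference between 2 genes' log2 profiles over the 20 libraries, each taken relative to the Vehicle mean. There were 9088 candidate genes with a mean of at least 100. Nearest to Serpinh1 were Sparc, a collagen-binding matrix glycoprotein, at 0.30, Glipr2 at 0.31 and the laminin chain gene Lamc1 at 0.32, where the median candidate stood at 1.00. Nearest to Ckap4 were B4galt6 at 0.25, Lamc1 at 0.27 and Lamb1, another laminin chain gene, at 0.30, with a candidate median of 0.98. Nearest to Rcn1 were Foxq1 at 0.40, the laminin gene Lama1 at 0.49 and Trim6 at 0.50, with a candidate median of 1.39. Golm2 had other neighbors: Ddx19a at 0.26, Trim71 at 0.28 and Kri1 at 0.31, with a candidate median of 0.79. These values describe the profiles over shared libraries and carry no test. A profile flat at the Vehicle mean stood at 1.34 from Rcn1, 0.90 from Ckap4, 0.68 from Golm2 and 0.92 from Serpinh1. The candidate medians thus mostly restate each gene's own shift. Rcn1, Ckap4 and Golm2 were picked for their fall, so neighbors that fell by a like amount follow from that choice.

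Other genes of the pathway were read from the same fit, where 0.796% of all genes fell and 1.84% rose in Str - let7f, and 0.664% fell and 1.23% rose in 2x Str - let7f. Of 3 other members of the reticulocalbin family, 1 fell in Str - let7f. Rcn3 went from 74.5 ± 37.9 (SD, n = 7) to 14.0 ± 18.6 normalized counts (n = 8; limma adjusted p = 0.0413) and stood at 26.7 ± 34.7 in 2x Str - let7f (limma adjusted p = 0.218). The Rcn3 call held under 13 of 26 alternatives, with adjusted p up to 0.0954. Calu differed from Vehicle by -0.02 ± 0.14 (SE) and 0.03 ± 0.15, and Sdf4 by 0.16 ± 0.11 and 0.30 ± 0.13, and neither passed.

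Of 14 other collagen-modifying enzymes and partners that were tested, 1 fell and 0 rose in Str - let7f, and 2 fell and 0 rose in 2x Str - let7f, with median differences of -0.51 and -0.35. In Str - let7f 2 fell without Vehicle replicate 2, and in 2x Str - let7f 1 fell without any 1 of Vehicle replicates 1, 2, 3, 5 and 8 or 2x Str - let7f replicates 1, 2 and 3. With DESeq2 5 fell in Str - let7f and 3 in 2x Str - let7f. Sparc averaged 3067 ± 477 (SD, n = 7) normalized counts in Vehicle and fell to 1654 ± 534 (n = 8) in Str - let7f and 1362 ± 369 (n = 5) in 2x Str - let7f. It passed in both (limma adjusted p = 0.00487 and 0.00206) and under every alternative run. Fkbp11, which encodes a peptidyl-prolyl isomerase of the secretory pathway, fell in 2x Str - let7f, from 68.8 ± 27.4 to 16.5 ± 10.5 (limma adjusted p = 0.0339; passing under 14 of 23 alternatives), and stood at 26.4 ± 13.4 in Str - let7f (limma adjusted p = 0.129). P4hb, the beta subunit that pairs with P4ha1 and P4ha2, was named outside the rule for other genes and differed by -0.04 ± 0.10 (SE) and -0.14 ± 0.11, which did not pass.

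Of 26 genes of the COPII coat and large-cargo export, the machinery that carries procollagen out of the endoplasmic reticulum, 0 passed in either comparison. Their medians were -0.01 and -0.03. The list includes Creb3l1 and Creb3l2, which encode transcription factors rather than parts of this machinery. The smallest p values were those of Trappc2 (0.94 ± 0.30, SE, limma adjusted p = 0.113) and Creb3l1 (-0.93 ± 0.44, limma adjusted p = 0.318) in Str - let7f, and of Mcfd2 (0.55 ± 0.18, limma adjusted p = 0.153) and Creb3l1 (-1.20 ± 0.50, limma adjusted p = 0.285) in 2x Str - let7f. Of 9 genes that shape the endoplasmic reticulum beside Ckap4, 0 passed, with medians of -0.13 and -0.08. Among them Ktn1, which encodes the sheet protein kinectin, stood at -0.48 ± 0.15 and -0.51 ± 0.17 (limma adjusted p = 0.0974 and 0.148). Rrbp1, the ribosome receptor of sheets, stood at -0.20 ± 0.11 in Str - let7f and Tmem33 at 1.17 ± 0.46 in 2x Str - let7f, neither passing. Of 15 Golgi genes beside Golm2, Golm1, its paralogue, fell in Str - let7f, from 1181 ± 375 (SD, n = 7) to 589 ± 174 normalized counts (n = 8; limma adjusted p = 0.00856). None of the 15 passed in 2x Str - let7f, with Golm1 at -0.88 ± 0.24 (limma adjusted p = 0.0529) and Man2a1 at 0.60 ± 0.18 on the log2 scale (SE, limma adjusted p = 0.104). The Golgi medians were 0.03 and -0.13.

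**Figure D4:**
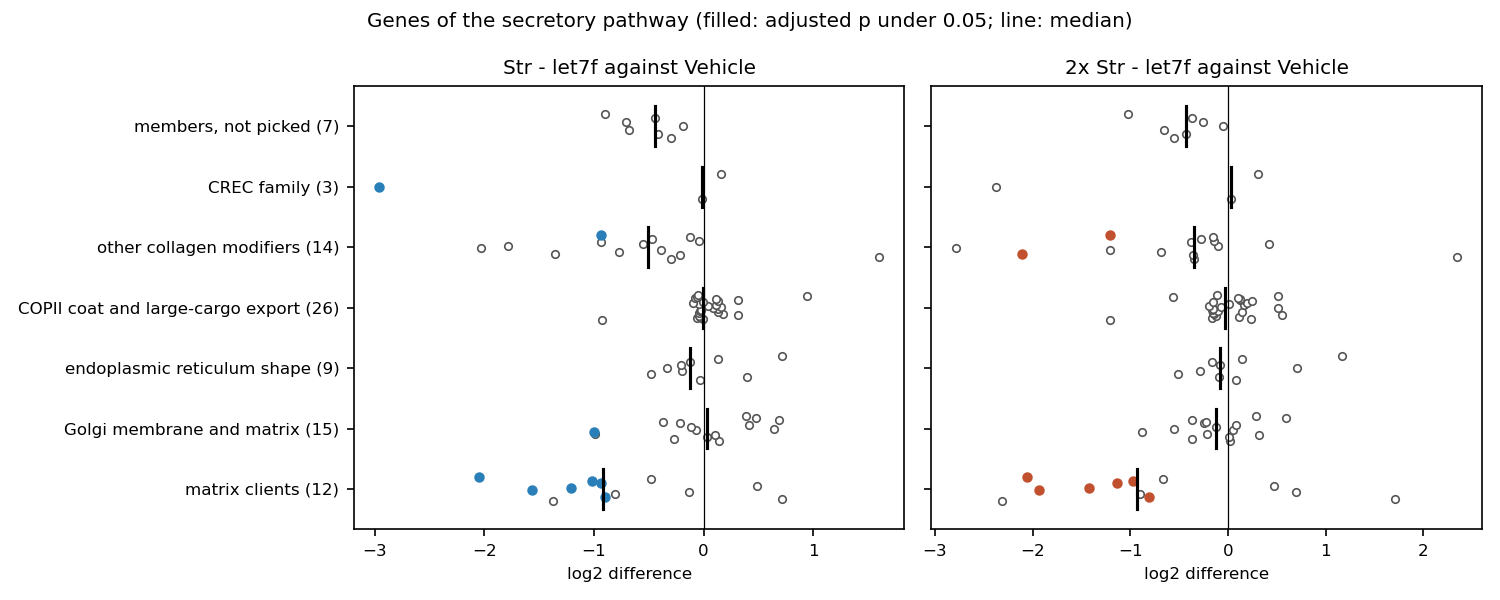
Log2 difference from Vehicle of each gene tested in the secretory pathway lists (circles, filled where the adjusted p is under 0.05) with the median of each list (black bar), in Str - let7f and 2x Str - let7f; the number of genes is in brackets, and the genes under study appear only in the first row. Filled circles lie mostly in the row of matrix clients, while the 26 genes of the COPII coat and large-cargo export have medians of -0.01 and -0.03.

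Of 12 matrix genes tested, the cargo of this pathway, 6 fell and 0 rose in each comparison, with median differences of -0.92 and -0.93. These were Col4a1, Lama1, Lamb1, Lamc1, Nid2 and Hspg2 in both. The Col4a1 call held under 26 of 27 alternatives in Str - let7f. In 2x Str - let7f (limma adjusted p = 0.0445) it held under 10 of 24. Col4a2, named outside the rule, did not pass in either comparison. It averaged 3780 ± 845 (SD, n = 7) normalized counts in Vehicle, 2255 ± 788 (n = 8) in Str - let7f and 2106 ± 788 (n = 5) in 2x Str - let7f. Without 1 library in turn, 6 to 7 fell in Str - let7f and 4 to 8 in 2x Str - let7f, and in libraries over 5 M reads 2 fell in the latter. Nid2, which encodes nidogen 2, averaged 1320 ± 261 (SD, n = 7) normalized counts in Vehicle, 325 ± 92.6 (n = 8) in Str - let7f and 317 ± 64.2 (n = 5) in 2x Str - let7f. Its fall passed in both (limma adjusted p = 1.79e-07 and 2.44e-06) and under every alternative run. Lamc1, the laminin gamma 1 chain, fell from 13709 ± 2638 to 6903 ± 2005 and 7165 ± 2307 (limma adjusted p = 0.00115 and 0.00836). Lama5, named outside the rule, ran the other way at 0.49 ± 0.17 and 0.47 ± 0.20 (SE), which did not pass (limma adjusted p = 0.151 and 0.285).

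Within a group, the level of Serpinh1 and that of the matrix genes could be set side by side pool by pool. This relation was chosen after the values were seen. It was computed on log2 values for the 7 genes that were not picked, in Vehicle and in Str - let7f, 14 relations in all. Each gene was set against the summed normalized count of 13 matrix genes. This sum holds laminin, nidogen and perlecan genes beside collagen genes, so it does not measure collagen alone. In Vehicle, Lama1 averaged 16467 and Lamc1 13709 normalized counts, against 7355 for Col4a1 and 3780 for Col4a2. In Str - let7f the Pearson r of Serpinh1 was 0.872 (n = 8, exact permutation p = 0.00362, adjusted p = 0.0507) and the Spearman rho 0.905 (exact permutation p = 0.00456, adjusted p = 0.0639), two-sided, and neither passed after adjustment. Without replicates 2 and 10, the pools farthest from the median of the matrix sum, r was 0.713 (n = 6, exact permutation p = 0.114). Leaving them out also narrows the range and the number of pools, so this cannot show whether the relation rested on those 2 pools. For Serpinh1 in Vehicle r was 0.194 (n = 7, exact permutation p = 0.742, adjusted p = 0.799) and rho -0.21 (exact permutation p = 0.662, adjusted p = 0.846), and without the 2 farthest pools r was 0.302. None of the other 12 relations passed after adjustment. Both values of a pool share its library and size factor. No correlation is given for 2x Str - let7f, which has 5 pools.

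**Figure D5:**
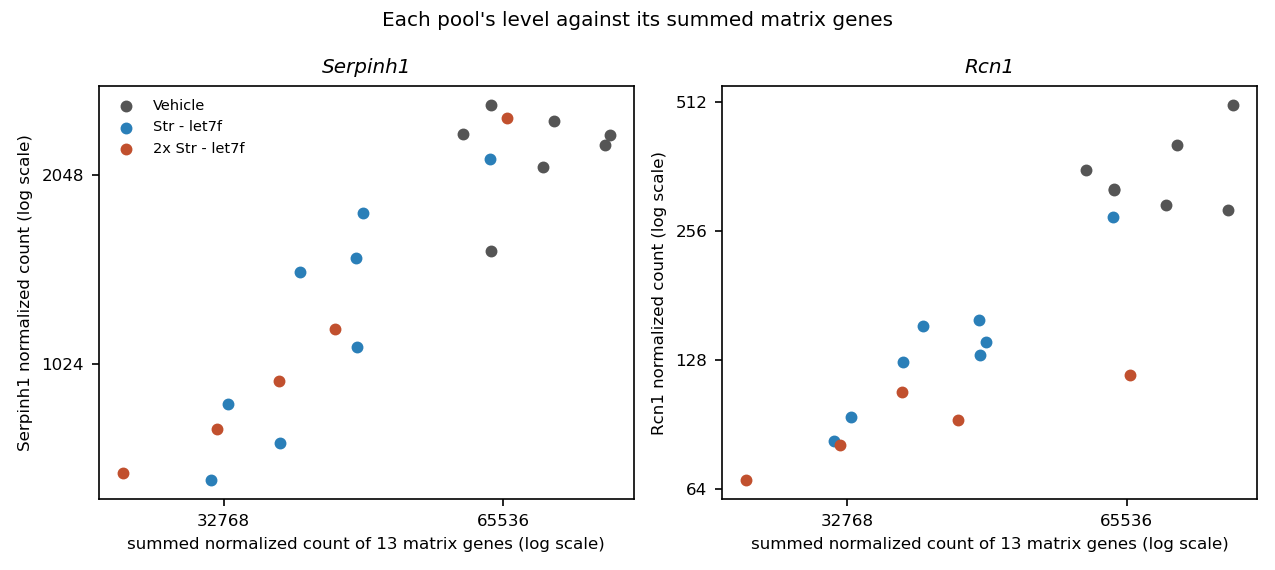
Normalized count of Serpinh1 (left) and Rcn1 (right) in each pool against the summed normalized count of 13 matrix genes in that pool, both axes on a log scale, colored by group. For 2x Str - let7f replicate 1, Serpinh1 (2524) and the matrix sum (66089) lie within the range of the Vehicle pools, while Rcn1 (118) does not.

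Serpinh1 lay within the range of the Vehicle pools in 3 mimic pools: 2x Str - let7f replicate 1 and Str - let7f replicates 1 and 2. For 2x Str - let7f replicate 1 the 13 matrix genes summed to 66089 normalized counts, against 25528 to 43133 in the other 4 pools of the group and 59314 to 85252 in Vehicle. In Str - let7f, replicate 2 held the highest sum, 63416, and the highest Serpinh1 and Rcn1. Replicate 1, with Serpinh1 at 1783, had a sum of 46255, below every Vehicle pool. Replicate 10 held the lowest sum, 31726, and the lowest Serpinh1 and Rcn1.

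Cell type markers were read beside these results, since in pooled embryos fewer cells of a type and less RNA per cell cannot be told apart. Markers of all 3 blastocyst lineages were present in every group, and no marker in the table was without reads in any group. Of 17 primitive endoderm markers outside the matrix genes, 7 fell and 0 rose in Str - let7f and 4 fell and 0 rose in 2x Str - let7f. These counts rested on single pools: with 1 library left out in turn, 2 to 7 and 1 to 4 fell. Cubn averaged 2690 ± 684 (SD, n = 7) normalized counts in Vehicle, 1218 ± 265 (n = 8) in Str - let7f and 1075 ± 210 (n = 5) in 2x Str - let7f, and passed in both (limma adjusted p = 0.000241 and 0.000202) and under every alternative run. Gata4 averaged 1079 ± 180, 528 ± 192 and 503 ± 204 in these groups (limma adjusted p = 0.0324 and 0.0437) and passed under 20 of 27 and 12 of 24 alternatives. Sox7 and Amn passed in Str - let7f with smaller p than Gata4 (limma adjusted p = 0.0172 and 0.0195), under 25 of 27 and 21 of 26 alternatives. Of these 2 only Amn, at 81.4 normalized counts in Vehicle, passed in 2x Str - let7f (limma adjusted p = 0.0204). Gata6 and Sox17, chosen as further defining markers after their values were seen, did not pass in either comparison. Gata6 ran higher in the mimic groups, at 2512 ± 629, 3128 ± 811 and 3296 ± 1215, and Sox17 lower, at 419 ± 67.7, 371 ± 110 and 354 ± 94.4. Of the 17 markers, 14 had differences below 0 in each comparison, as did 51.8% and 50.7% of all genes. The primitive endoderm list summed to 47397 to 65915 in Vehicle, 40803 to 55366 in Str - let7f and 41310 to 54284 in 2x Str - let7f, so the groups overlapped. Its lowest sums were in Str - let7f replicate 2 and 2x Str - let7f replicate 1, the pools with the highest Serpinh1 of their groups.

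Of 14 epiblast markers 1 rose in Str - let7f, Tfcp2l1 (held under 10 of 27 alternatives), and 0 passed in 2x Str - let7f, and the list summed to 17947 to 22616 in Vehicle, 19773 to 26671 in Str - let7f and 20892 to 22777 in 2x Str - let7f. Of 17 trophectoderm markers 2 rose in Str - let7f, Krt19 and Lgals3 (held under 26 and 21 of 27 alternatives), and 1 rose in 2x Str - let7f, Krt19 (held under 10 of 24). The trophectoderm list summed to 90824 to 132228, 85366 to 139449 and 102799 to 153367, with the highest value in 2x Str - let7f replicate 1. Among stromal markers, 3 of 9 were in the table, Col1a2, Thy1 and Pdgfrb, and summed to 161 to 479 over all pools. Pdgfrb fell in Str - let7f, with a log2 difference of -3.02 ± 0.79 (SE, limma adjusted p = 0.0398), a call held under 10 of 26 alternatives. The 2 cumulus and granulosa markers in the table summed to at most 68, and the 4 blood and immune markers to at most 78, in any pool. The part of cell type composition in the differences of the 10 genes was not tested.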

How the data were processed

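Bulk RNA sequencing of rRNA-depleted total RNA covered 20 libraries. Per the submitters' processing notes, build GRCm39, FastQC 0.12.1, Trimmomatic 0.39, MultiQC 1.28, DESeq2 1.48.2 and kallisto 0.50.1 were used; the annotation and the step from transcripts to genes are not given in the sources used here. The signal deposited by the authors is 1 normalized count for each gene and library. All values (100%) were whole multiples of 1 read within 0.01 in every library, so whole reads and depths were recovered. An entry with no gene name, 0.0286% to 0.0618% of reads, was left out.

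Values were taken as log2(value + 1), which understates changes of low genes, for the 15068 genes that reached 10 in 5 or more libraries. The fit in limma 3.58.1 (R 4.3.3) took all 20 libraries, a mean for each group and a trended prior, two-sided, with Benjamini-Hochberg adjustment over all genes and calls at 0.05. Correlations used exact permutation tests (scipy 1.17.1). Alternatives used edgeR 4.0.16 and DESeq2 1.42.0 on recovered reads, other scalings, filters and pseudocounts, array weights, the replicate number as a block, and each library left out. The steps were tested on simulated data. The members and gene lists were chosen with earlier results of these data known. Of other genes in the pathway lists, those that passed (at most 4, smallest p first) or otherwise the 2 with the smallest p were named. For the matrix genes all 6 that passed were named, beyond this limit. The rule was not kept for the lists of cell type markers. Reads of near-identical transcripts are split by kallisto, which makes values of close relatives uncertain. Sequences come from RefSeq (GRCm38.p6) and GENCODE M21 (GRCm38), another build than that of the files; protein sequences were not used here.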

Additional observations from a re-analysis of the deposited data

Results flagged for a closer look

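In 4 of 30 groups of pools tested, 1 pool lay far from the others of its group by Dixon's 95% criterion, which chance alone meets in about 1 of 20 groups. The criterion was applied to normalized counts, where high values stand out more than on the log2 scale of the fit. It was not run on log2 values, where fewer pools may be flagged. The genes share their pools, so the 30 groups are not independent. Serpinh1 stood at 2524 normalized counts in 2x Str - let7f replicate 1, where the next pool was at 1163. Ckap4 stood at 984 in the same pool, where the next was at 572. In Str - let7f, Ckap4 stood at 1061 in replicate 1, above the next pool at 739, and Rcn1 at 276 in replicate 2, above the next pool at 159. All 4 values were the highest of their groups and lay nearest to the Vehicle pools.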

How the results depend on the processing

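All 10 log2 differences of Str - let7f from Vehicle, and those of 2x Str - let7f from Vehicle except Plod2, stayed below 0 under every alternative run. Of 760 alternative values of single genes, 724 counted as unchanged, 10 passed where the reported value did not, and 26 changed sign. For the 7 genes not picked, unchanged meant the same direction and side of the threshold. The 3 picked genes had no threshold. For them it meant the same direction and a shift below the larger log2 SD of the 2 groups. For Str - let7f against Vehicle, where 397 genes passed, 767 passed with DESeq2, 617 with array weights and 201 with libraries over 5 M reads. Of the 7 genes not picked, 1 passed with DESeq2, with array weights and with only the groups compared, Serpinh1 each time (adjusted p = 0.0457, 0.00533 and 0.0315). For 2x Str - let7f against Vehicle, where 285 genes passed, 620 passed with DESeq2, 647 with array weights and 68 with libraries over 5 M reads. Of the 7, 1 passed with DESeq2 (P4ha1) and 2 with array weights (Serpinh1 and P4ha1, limma adjusted p = 0.00171 and 0.0288). For 2x Str - let7f against Str - let7f, where 0 genes passed with limma and 608 had an unadjusted p under 0.05, 10 passed with DESeq2 and 1 with edgeR. The cause of these shifts was not tested, except that the depth filter leaves 15 libraries. Over all alternatives the adjusted p of Serpinh1 ran from 0.00533 to 0.146 in Str - let7f and from 0.00171 to 0.350 in 2x Str - let7f. With 1 library left out in turn, 282 to 459, 144 to 273 and 0 to 1 genes passed in the 3 comparisons, and 0 to 1, 0 to 1 and 0 of the 7. For 2x Str - let7f against Vehicle the count moved most without replicates 2, 3, 4 or 5 of 2x Str - let7f (188, 151, 157 and 144) and Vehicle replicates 2 or 3 (181 and 176).

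The sign changes were all near 0. In 2x Str - let7f against Str - let7f, Plod1 (0.03) stood at -0.0959 with DESeq2, -0.118 with array weights, -0.104 with edgeR and -0.0826 with libraries over 5 M reads. Plod2 (0.14) stood at -0.00714 with array weights, and P4ha2 (-0.01) at 0.0453 with libraries over 5 M reads. With 1 library left out, values in this comparison ran from -0.0290 to 0.130 for Rcn2, -0.0269 to 0.0974 for Golm2, -0.427 to 0.0416 for Serpinh1, -0.0859 to 0.0545 for P4ha2 and -0.0834 to 0.131 for Plod1. Plod2 in 2x Str - let7f against Vehicle ran from -0.118 to 0.0565.

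With the replicate number as a replicate block, 293, 277 and 0 genes passed in the 3 comparisons and 0 of the 7, Col4a1 no longer passed in Str - let7f (limma adjusted p = 0.0685), and P4ha2 stood at 0.0790 in 2x Str - let7f against Str - let7f. No strong pairing by number was seen: 0 of 6, 0 of 4 and 0 of 4 same-number pairs correlated over 0.1. Of the libraries with a partner, 4 of 12, 3 of 8 and 2 of 8 correlated best with their own number. Median correlations were 0.044, 0.051 and 0.047 for same-number pairs, against -0.0033, -0.012 and -0.0069 for different numbers. Whether this small excess marks a shared day was not tested. Rcn1 rested on 13 reads in 2x Str - let7f replicate 4, so single low values are imprecise.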
